A study of Homo sapiens with 12 samples.

Results

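Terminal oligopyrimidine (TOP) mRNAs encode ribosomal proteins and translation factors, and 8 of them were examined here: EEF2, EEF1A1, RPS6, RPLP0, RPL3, RPS2, TPT1 and PABPC1. The measurements were 6 lists of peak intervals from MeRIP-seq, in which an antibody enriches RNA fragments that carry N6-methyladenosine (m6A), and enriched RNA is sequenced alongside its input. An interval, which is 1 line of a list, was assigned to a gene when it shared at least 1 bp with the gene's hg19 span on the same strand. Of the 53502 intervals in the lists, 9 belonged to these genes: 4 to EEF2, 3 to PABPC1 and 2 to TPT1. EEF1A1, RPS6, RPLP0, RPL3 and RPS2 had no interval in any list.

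H460 is an established cell line from a human large cell lung cancer, and the labels call it wild-type. Per the labels, 12 libraries form 4 groups of 3, namely input and immunoprecipitated libraries of untreated cells and of cells given 100 nM rapamycin for 24 h. Whether replicates were separate cultures is not stated, and the labelled cell type cannot be checked from peak lists. GEO attaches the lists to samples of untreated cells only, inputs and immunoprecipitates alternately, yet the names of 3 of them (D, E and F below) carry the word rapamycin and those of the other 3 (A, B and C) the word con. Because these sources contradict each other, no list was placed in a treatment arm. The effect of rapamycin on these genes was therefore not tested, and values are given list by list.

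A TOP mRNA starts with a cytidine next to the cap, followed by an unbroken run of pyrimidines. When the kinase complex mTORC1 is active these mRNAs are well translated. When it is inhibited, as by rapamycin, the protein LARP1 can hold the capped pyrimidine start and keep the mRNA from ribosomes. m6A is a separate mark, laid down on adenosines inside the transcript and found most often near stop codons and in long exons.

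The start sequences describe the feature by which genes count as TOP mRNAs, so its presence in genes chosen as such is not a finding. RefSeq start sequences (GRCh38.p14, a different build from that of the lists) were at hand for 6 of the 8 genes. Each line gives 10 bases before the annotated start and 20 bases from it, written 5′ to 3′ on the gene's strand. Capitals mark the run of C and T that begins at the annotated start.
EEF2: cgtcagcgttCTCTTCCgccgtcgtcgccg
EEF1A1: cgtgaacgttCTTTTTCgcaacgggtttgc
RPS6: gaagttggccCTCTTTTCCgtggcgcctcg
RPLP0: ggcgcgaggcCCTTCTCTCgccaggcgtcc
RPL3: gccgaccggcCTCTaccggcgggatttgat
TPT1: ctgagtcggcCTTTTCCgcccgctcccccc
The 6 genes all have C as their first transcribed base, against 14.7% of the 35116 start sequences in the table, which were not filtered by gene type. A C followed by at least 4 bases that are each C or T, read at the annotated start on the gene's strand only, was present in 5 of the 6 genes and in 4.07% of all start sequences. RPL3 was the exception, since its run at the annotated start is 4 bases long. With the C just before that start its run is 5 bases long, so the exception depends on where the start is placed. At the annotated start, the runs of the other genes were 7 bases long in EEF2, EEF1A1 and TPT1 and 9 bases long in RPS6 and RPLP0. These windows lie at chr19:3985444-3985473 for EEF2, chr6:73521013-73521042 for EEF1A1, chr9:19380217-19380246 for RPS6, chr12:120201092-120201121 for RPLP0, chr22:39319604-39319633 for RPL3 and chr13:45341164-45341193 for TPT1, all GRCh38.p14 and all on the minus strand. All positions given from here on are hg19.

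The lists differ in length, which bears on each presence or absence below. Lists A, B and C held 12040, 14908 and 12288 intervals, and lists D, E and F held 4837, 4530 and 4899. The authors' deposited score is 1 value per peak on an unstated scale. It was used as a percentile within its own list, where a higher percentile means that fewer intervals of the list score above it. Many scores stand at exactly 3100, and such intervals are tied in rank. The depth behind the lists is unknown. List B held intervals in 3 of the 8 genes, lists A, C and F in 2 each, and lists D and E in 0. Of the 48 combinations of gene and list, 9 had an interval and 39 had none. The share of all genes with an interval was not computed, because the annotation at hand is of GRCh38. Presence or absence in these genes is therefore not read as particular to TOP mRNAs.

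**Figure D1:**
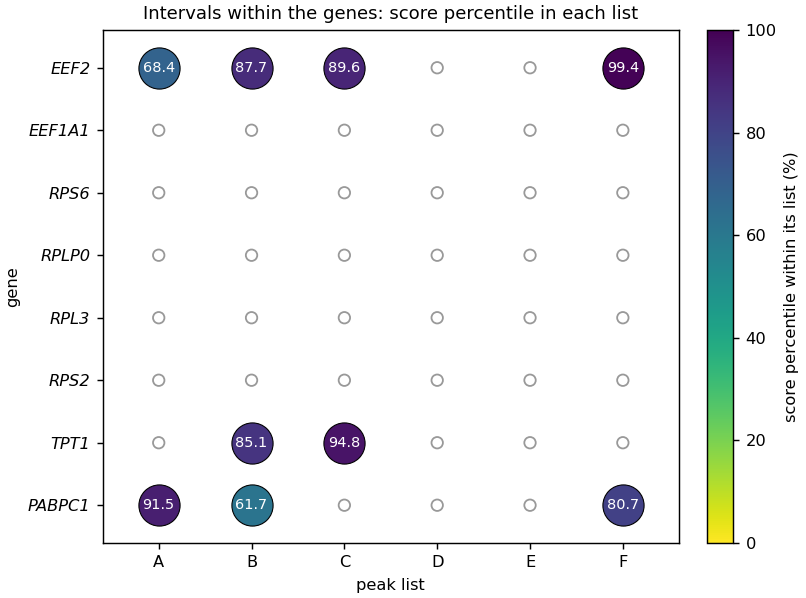
Score percentile of each interval in the 8 genes (rows) by peak list (columns), where a filled circle carries the percentile (%) within its list and a small open circle means that the list has no interval in the gene. EEF2, TPT1 and PABPC1 hold the 9 filled circles, and the columns of lists D and E are empty.

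EEF2 was the gene held by the most lists. It encodes elongation factor 2, the GTPase that moves the ribosome along the mRNA after each peptide bond, and is itself inactivated by its own kinase when energy or nutrients are short. Its span is chr19:3976054-3985461 on the minus strand, 9408 bp. Lists A, B, C and F each had an interval at chr19:3976054-3976745, 692 bp wide, and both ends were the same to the base in all 4. Lists D and E had none. The interval begins 8716 bp from the gene's 5′ end and stops on the last base of the span, so that it covers the final 7.36% of the gene. The 8716 bp before it held no interval in any list.

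The rank of the EEF2 interval varied between lists. Its score was 468.41 in A, 2909.24 in B, 2985.73 in C and 3100 in F. In percentiles these were 68.4 in A, 87.7 in B, 89.6 in C and 99.4 in F, so that A ranked it lowest and F highest. In F it was among 54 intervals at 3100 or more, 1.1% of that list. In A it ranked 3810 from the top. Why D and E lacked the EEF2 interval was not tested. Lists A to E held a neighbouring interval on the 3′ side, 16419 bp past the end of EEF2, at percentiles from 69.7 in D to 93.9 in B. In list F the nearest interval on that side lay closer, at 11065 bp, and ranked at 19.8.

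PABPC1 was held by 3 lists, at the opposite end of the gene. It encodes the cytoplasmic poly(A)-binding protein, which coats the tails of mRNAs, aids translation initiation and represses its own mRNA by binding an adenosine-rich stretch of the 5′ leader. The span is chr8:101715144-101734315 on the minus strand, 19172 bp, the longest of the 8. Lists A, B and F each had an interval at chr8:101733619-101734315, 697 bp wide, again with both ends identical. It starts on the first base of the gene and covers the first 3.64% of it. No interval lay in the remaining 18475 bp.

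As deposited, the order of the lists was not that of EEF2. The PABPC1 interval scored 1721.15 in A, 623.27 in B and 439.46 in F. Its percentile was 91.5 in A, 61.7 in B and 80.7 in F. List A thus ranked PABPC1 above EEF2, whereas B and F ranked EEF2 above PABPC1. The order of A and F depends on list length. With every list reduced to its 4530 highest scores, the PABPC1 interval stood at 77.5 in A and 79.1 in F, and B lost it. List C, which held EEF2 at percentile 89.6, had no interval in PABPC1. The nearest same-strand interval outside the gene lay 227 to 415 kb away. Within 500 kb of PABPC1, on either strand, each list had 2 to 6 intervals.

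TPT1 was held by lists B and C, at the 3′ end and largely beyond it. It encodes the translationally controlled tumour protein, named for the control of its own mRNA. Its span is chr13:45911306-45915297 on the minus strand, 3992 bp. The interval was chr13:45909958-45911688 in B, 1731 bp wide, and chr13:45910296-45911688 in C, 1393 bp wide. The 2 shared the end inside the gene and differed by 338 bp at the other. In both lists 383 bp lay inside the span, the last 9.59% of the gene. The rest, 1348 bp in B and 1010 bp in C, lay past the 3′ end. With at least 50% of an interval required inside the span, TPT1 therefore has 0 intervals.

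The current RefSeq model of TPT1 (GRCh38.p14) is 7713 bp long, 3721 bp longer than the span used here, and the next gene on its 3′ side in that assembly is GTF2F2. Whether the added length covers the interval was not examined, because positions were not carried between builds. For EEF2 the 2 lengths are equal, and for PABPC1 they differ by 1 bp. The TPT1 interval scored 2392.82 in B and 3100 in C, percentiles of 85.1 and 94.8. Scores of 3100 or more made up 10.0% of list C. List A had no interval there, and its nearest same-strand interval was 626 kb away.

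**Figure D2:**
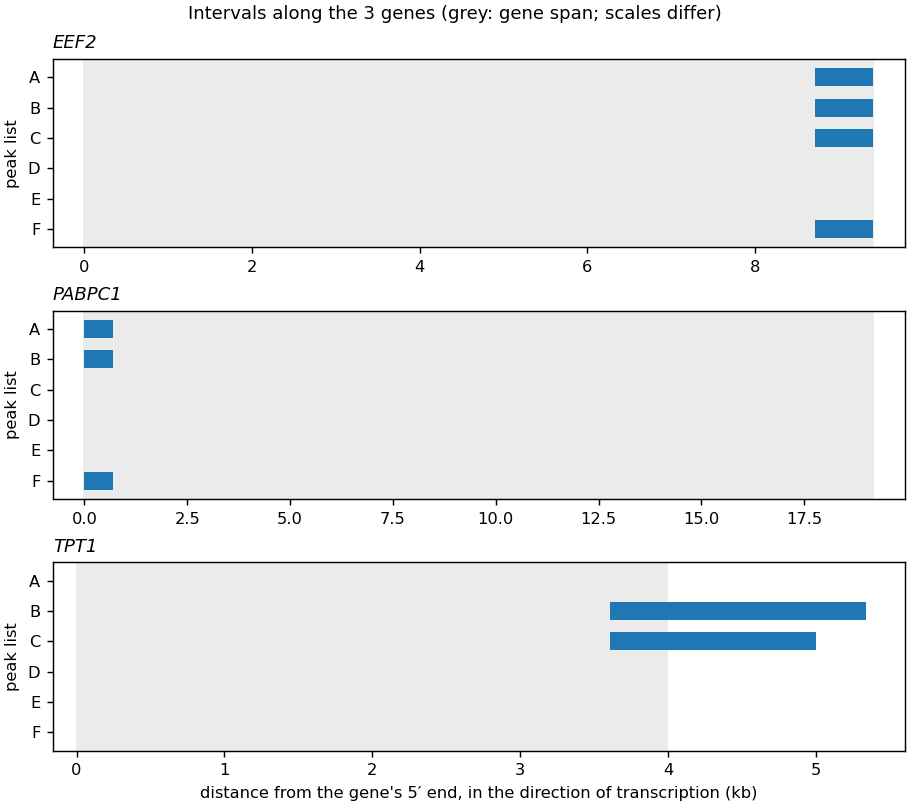
Position of each interval (blue bars) along EEF2, PABPC1 and TPT1 by peak list, with the distance from the gene's 5′ end in kb in the direction of transcription and the gene span in grey. The bars sit on the last 692 bp of EEF2, on the first 697 bp of PABPC1 and across the 3′ end of TPT1, where 1348 bp in B and 1010 bp in C lie outside the gene.

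Among the 9 intervals the score percentile ran from 61.7 to 99.4 with a median of 87.7, and all 9 lay above the median of their list as deposited. The 9 are repeat listings of only 3 regions, held by 4 (EEF2), 3 (PABPC1) and 2 (TPT1) lists, and not separate observations. These percentiles depend on list length. With every list reduced to its 4530 highest scores, 8 intervals remained and 7 of them lay above the median of their list. The PABPC1 interval of list B dropped out, and the EEF2 interval of list A fell to percentile 15.9. They were of moderate to large width, from percentile 53.1 to 87.8 of their own lists. All 3 genes had a single stretch, and each stretch touched or crossed a gene end. None of the 9 intervals lay wholly in the interior of a gene. Ends repeated to the base also occurred outside these genes, as lists A to E shared a 1185 bp interval 16419 bp past EEF2. Whether gene annotation set such edges was not tested, so identical ends are not read as exact m6A positions.

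Joined across lists, overlapping intervals form 20742 regions, of which 3 belong to these genes. The EEF2 region was held by 4 lists, as were 9.48% of all regions. The PABPC1 region was held by 3 lists, as were 17.6% of all regions, and the TPT1 region by 2, as were 19.8%. No region of these genes was held by every list, against 8.3% of all regions, and 3 regions are too few to be read as above or below that share. By list pattern, 464 regions shared the EEF2 pattern of A, B, C and F without D and E (2.24%), 151 the PABPC1 pattern of A, B and F (0.728%) and 1620 the TPT1 pattern of B and C (7.81%).

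**Figure D3:**
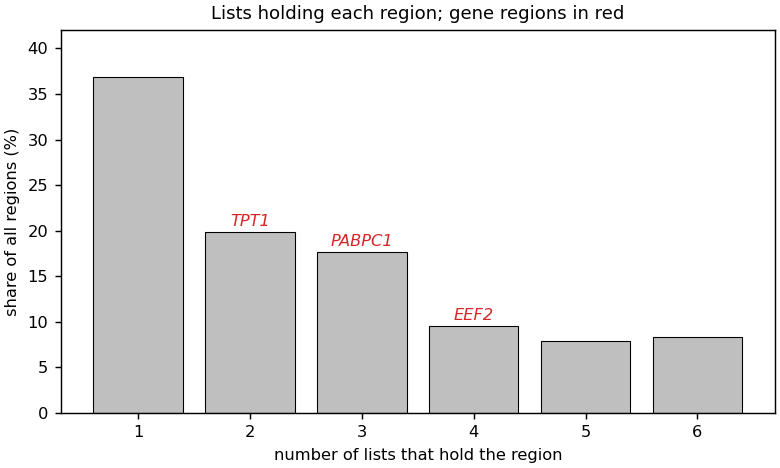
Share of all 20742 regions (%) by the number of lists that hold them (grey bars), with the regions of TPT1, PABPC1 and EEF2 named in red over the bar they fall in. They fall at 2, 3 and 4 lists, and the bar at 6 lists, 8.3% of regions, has none of them.

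The 5 genes without an interval include the other elongation factor and all 4 ribosomal proteins. EEF1A1 encodes the factor that delivers aminoacyl-tRNA to the ribosome, and its span is chr6:74225473-74230755 (minus, 5283 bp). It lay in a stretch nearly free of intervals. Within 500 kb on either side and on either strand, lists A, C, D, E and F had 0 intervals and list B had 3. The nearest same-strand interval was 206 kb away in B, 1660 kb in C, 1730 kb in A and 5470 to 5990 kb in D, E and F. EEF2 and EEF1A1, which act in the same elongation cycle, thus differed in that one was held by 4 lists and the other by 0.

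RPS6 encodes the small-subunit protein that S6 kinase phosphorylates downstream of mTORC1, widely used as a readout of the pathway. Its span is chr9:19376254-19380235 (minus, 3982 bp). Each list had 1 to 6 intervals within 500 kb of it. The nearest on its strand lay 260 kb away in B and 317 kb in A and C, on the 3′ side. It was 973 kb away in D and E and 3900 kb in F. The current RefSeq model of RPS6 is 4522 bp long, 540 bp longer than the span searched.

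RPS2, a protein of the small subunit, and RPLP0, the base of the ribosomal stalk that recruits elongation factors, lay in more densely covered surroundings. The span of RPS2 is chr16:2012062-2014827 (minus, 2766 bp), the shortest of the 8. Between 8 and 33 intervals per list fell within 500 kb of it, and its nearest same-strand interval was 18.8 kb away in C and 22.9 kb in A, B and E, but 81.3 kb in D and 143 kb in F. The span of RPLP0 is chr12:120634503-120638912 (minus, 4410 bp), with 6 to 20 intervals per list within 500 kb. In list F an interval 9.33 kb upstream of RPLP0 came closest to an interval-free gene, with a score of 80.35 at percentile 9.74. The other lists had their nearest interval 23.0 kb (B) to 99.3 kb (C and E) from RPLP0. Every list thus held intervals around both genes and listed none within them.

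RPL3, a protein of the large subunit that reaches towards the peptidyl transferase centre, had its span at chr22:39708887-39715670 (minus, 6784 bp). The nearest interval on its strand was 446 kb away on the 3′ side in B, C, D, E and F, and 209 kb away on the 5′ side in A. Between 1 and 9 intervals per list lay within 500 kb. RPL3 hosts 4 small nucleolar RNA genes in RefSeq (SNORD139, SNORD43, SNORD83A and SNORD83B), and RPS2 hosts SNORA10 and SNORA64. Of the genes with an interval, EEF2 hosts SNORD37, TPT1 hosts SNORA31 and SNORA31B, and PABPC1 holds MIR7705 only. RefSeq places no gene inside EEF1A1, RPS6 or RPLP0. Whether hosting such RNAs relates to the presence of intervals was not tested. Ribosomal protein genes and EEF1A1 have many processed copies elsewhere in the genome. Whether genes with and without intervals differ in such copies was not examined. The sources used here do not say how reads matching several places were treated, so the values of all 8 genes are uncertain.

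**Figure D4:**
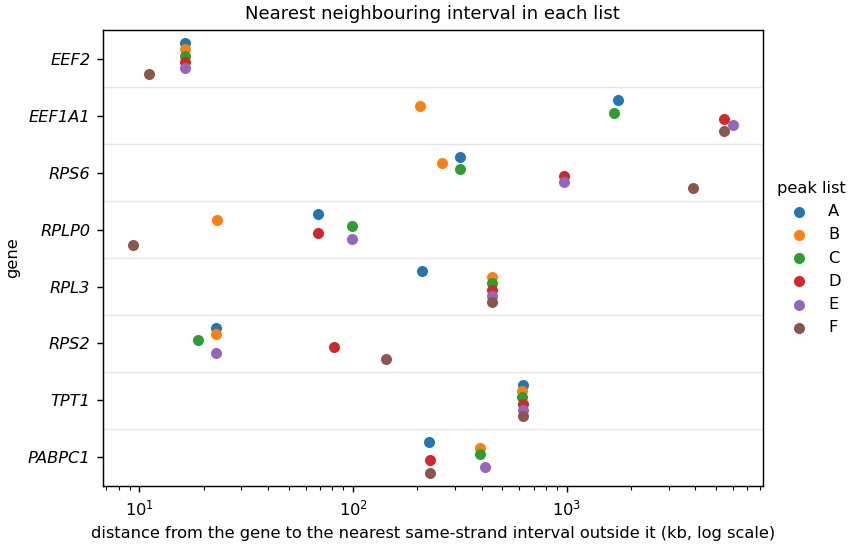
Distance (kb, log scale) from each gene to the nearest same-strand interval outside it, with 1 point per peak list. The points of EEF2 sit near 16.4 kb except list F at 11.1 kb, those of TPT1 lie between 615 and 626 kb in every list, and those of EEF1A1 reach 5990 kb.

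Strand did not hide any interval, since the opposite strand of the 8 spans held 0 intervals in all lists. A gene without an interval is not shown to be without a call, because each list is a numbered subset. Peak names carry a number that rises along the chromosome, and only 0.702% (E) to 14.0% (C) of the numbers appear. Around each of the 39 empty combinations the numbers of the flanking intervals left at least 3 numbers unlisted, and up to 833 around EEF1A1 in list E. The fewest, 3, was at RPS6 in list C. Where the calls behind those numbers lay and how they scored was not analysed here. Around EEF2, 7 numbers were unlisted in D and 22 in E. The lowest score listed was 70.02 in A and C, 70.01 in B, 70.03 in D and 70.08 in F, and slightly lower in E. All lists thus stop at nearly the same score, and weaker calls, if any were made, are absent from them. Whether unlisted calls lay inside these genes, and whether they scored below that level, could not be determined.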

How the data were processed

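The data are 6 peak lists with 1 line per peak, giving chromosome, start, end, name, score and strand. The deposited score is the authors' value per peak, on a scale not given in the sources used here. Positions are hg19, and the tools named include HISAT2 2.0.4, per the submitters' processing notes. The peak names have the default form of MACS, and neither its settings nor the libraries behind a list are stated in those sources. Starts were made 1-based. The gene spans are those of the rule that chose the genes, and intervals were matched to them with at least 1 bp on the same strand. Regions are same-strand intervals of all lists joined where they share at least 1 bp. Score percentiles are mid-ranks within a list. All 8 genes are named, whatever their values. The genes and the tables computed were chosen with earlier results of these data known. Other TOP mRNAs were not placed, because the annotation at hand is of GRCh38. No test was run, as the lists were not assigned to groups. Tables were computed with pandas 2.3.3 and numpy 2.4.6 under Python 3.11.15, and figures drawn with matplotlib 3.10.9. The overlap code, checked on simulated lists, recovered 79 of 79 known values and gave the count of bedtools 2.31.1 in 48 of 48 combinations of gene and list. Alternatives were a score minimum, a 50% overlap, ignored strand, spans widened by 1000 bp, lists of equal length and each list left out.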

Additional observations from a re-analysis of the deposited data

How the results depend on the processing

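EEF2, PABPC1 and TPT1 hold 9 intervals as deposited. The count was 9 with a score minimum at the pooled median of 260.435, with strand ignored and with spans widened by 1000 bp. It was 7 with at least 50% of an interval inside the span, which removes both TPT1 intervals, and 8 with every list reduced to its 4530 highest scores. With each list left out in turn it ran from 6 to 9, and TPT1 was held by 1 list without B or without C. No gene and no region was held by every list under any of these settings. Widening the spans by 10000 bp, an alternative chosen after the data were seen, gave 10 intervals, the added one being that near RPLP0 in list F. The median score percentile of 87.7 became 79.1 with the score minimum and 74.7 at equal list length, both of which by construction remove low scores. It ran from 85.1 to 90.6 with each list left out. No paired analysis was possible because the sources disagree on the lists' groups. No depth is known for the lists, so no detection limit is given.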
